A study of Arabidopsis thaliana with 18 samples.

Results

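Rosettes of the Landsberg erecta accession (Ler-0) that carry a NahG transgene were compared with rosettes of Ler-0 without it. Each genotype had 3 RNA-seq libraries, and these are 6 of the 18 libraries of the series, chosen by the accession and genotype that the labels give. Every library was a pool of 6 to 10 plants harvested 21 days after sowing, so p-values measure the spread between such pools. The plants of both groups grew first on a basal culture medium and from day 14 in soil, at 21 °C under days of 16 h light and nights of 8 h. Both groups share the erecta mutation of their accession. The promoter that drives NahG in Ler and the number of independent lines are not given in the sources used here, and its own transcripts were not analysed here. The other 12 libraries came from the C24 accession, from 2 NahG lines of C24 with a second C24 control named C24B, and from the C24 x Ler hybrid. Of 37336 gene rows, 20325 held enough reads to be tested.

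NahG encodes a bacterial salicylate hydroxylase that turns salicylic acid into catechol, so plants that make it are known to hold little salicylic acid. Plants make most of their salicylic acid in the chloroplast from chorismate, starting with the isochorismate synthase ICS1, and the activators SARD1 and CBP60g switch the ICS1 gene on. The hormone is read by NPR1, a coactivator, and by NPR3 and NPR4, which repress the same genes in its absence. All of them act through TGA transcription factors, and WRKY factors extend the response. EDS1 and PAD4 form a signalling pair that works downstream of intracellular immune receptors (NLRs) and raises salicylic acid in turn.

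The 6 libraries held 22581225 to 24144223 reads assigned to genes. Levels are given as CPM, the reads of a gene per 1000000 reads of a library whose size was scaled with edgeR's TMM factor, and they compare one gene across libraries and not genes of different length with each other. The summed level of 33 photosynthesis genes was 93800 to 152000 CPM in the 6 libraries. The root-hair genes EXPA7 and RHD6 were at or near 0, while PYK10, a beta-glucosidase gene known from roots, stood at 52.5 to 95.7 CPM. Ler rosettes at this age also held flower and inflorescence genes, whose list summed to 227 to 293 CPM against 23.5 to 26.6 CPM in the C24 libraries. In pooled tissue, fewer cells of a type and less RNA per cell cannot be told apart.

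Salicylic acid output genes and a set of immune receptor and kinase genes were lower in Ler NahG than in Ler, many of them several-fold, and few genes were higher. With edgeR's quasi-likelihood test and Benjamini-Hochberg adjustment over all genes, 102 genes were lower in Ler NahG at an adjusted p under 0.05, which is 0.502% of the genes tested. Another 18 genes were higher, which is 0.0886%, so that 0.59% changed in all. The median log2 fold change was −2.23 over the 102 falls and 0.83 over the 18 rises, and 0.0025 over all genes tested. A fall of at least 2-fold was seen in 90 of the 102 genes and of at least 8-fold in 34. The 3 libraries of one group all lay beyond the 3 of the other for each of the 120 genes, against 11.5% of all genes tested. The calls came from these same libraries, so that separation is no separate support for them. In 68 of the 102 falls the lowest Ler library was more than 2 times the highest NahG library.

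**Figure D1:**
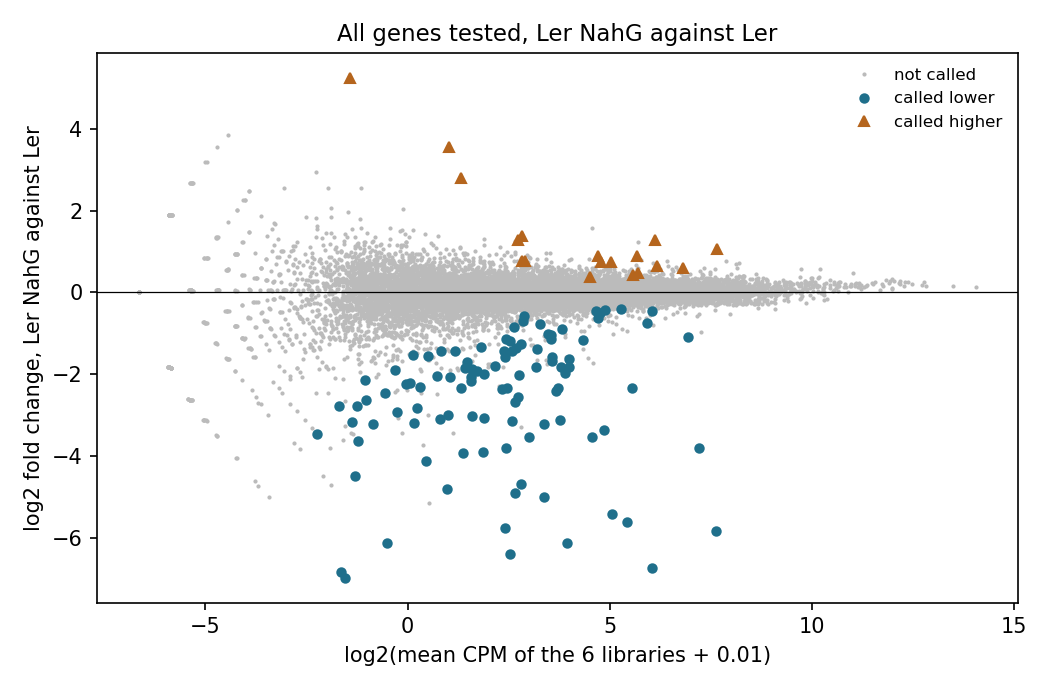
Log2 fold change of Ler NahG against Ler (vertical axis) against the mean level over the 6 libraries (horizontal axis, log2 of CPM plus 0.01) for the 20325 genes tested. Blue circles mark the 102 genes called lower and orange triangles the 18 called higher, with most of the called points far below 0.

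The level of these genes in untransformed Ler was uneven. Replicate 1 of Ler was the highest of the 3 Ler libraries for 87 of the 102 falling genes, against 39% of all genes tested. Among 33 photosynthesis genes the same library was also highest every time, at a sum of 145000 CPM against 98500 and 93800 CPM. Without that library, 85 of the 102 falls were still called and the median over the 102 was −1.90. Without replicate 1 of Ler NahG, 40 of the 102 were called, and the median over the 102 was −2.30. A fit of the 6 libraries alone, which estimates the spread from fewer libraries, called 21 of the 120 genes, and DESeq2 called 278 genes in all. The 21 were ECS1, PCC1, BDA1, LURP1, ACD6, AED1, WRKY54, WRKY70, NPR4, DMR6, WAK1, RK3, RLP38, SIB1 and AT1G56120, a leucine-rich repeat kinase gene, with AT1G13470, AT1G19960, AT2G16340, AT2G32170, AT2G41090 and AT5G42530. That fit tested 115 of the 120 genes, with WRKY38 and AT3G22235 among those it did not test, and the other calls ended in it.

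Of the 26 lists, that of salicylic acid output genes had the lowest median. The lists and their members were chosen with earlier results of these data known, so this rank is a description only. Of 18 listed genes that are known to respond to the hormone, 9 fell, none rose and 9 did not pass the test, with a median log2 fold change of −2.70. ECS1, which encodes a cell wall protein first described in bacterial resistance, stood at 204, 91.9 and 100.1 CPM in Ler replicates 1 to 3 and at 1.44, 0.825 and 1.44 CPM in the NahG libraries. The lowest Ler library was far above the highest NahG library, and replicate 1 was the highest of Ler. The fall of ECS1 was 6.72 in log2 units (SE 0.40, edgeR adjusted p = 1.6e-05).

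PCC1, a small membrane protein gene under pathogen and circadian control, read 49.4, 21.7 and 19.4 CPM in Ler and 0.247, 0.412 and 0.633 CPM in Ler NahG, a fall of 6.11 (SE 0.47, adjusted p = 9.2e-05). LURP1, a gene of late induction by downy mildew, read 139, 54.4 and 58.5 CPM in Ler and 2.06, 1.56 and 1.52 CPM with NahG, a fall of 5.6 (SE 0.45, adjusted p = 0.0001). In both genes the groups were wide apart and Ler replicate 1 was again the high one. BDA1, an ankyrin protein gene of immune signalling, went from 15.1, 9.16 and 6.83 CPM to 0.124, 0.183 and 0.253 CPM and fell by 5.75 (SE 0.42, adjusted p = 7.1e-05). Its NahG libraries held only a few reads each, since 3 reads amount to 0.124 to 0.133 CPM.

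LLP1, a lectin gene of systemic resistance, read 26.2, 4.66 and 6.03 CPM in Ler and 0.618, 0.458 and 0.127 CPM in Ler NahG. Here replicate 1 of Ler was several times the other Ler libraries, and the fall of 4.91 (adjusted p = 0.014) was lost at an adjusted p of 0.072 in edgeR without NahG replicate 1. ACD6, whose ankyrin-repeat membrane protein promotes salicylic acid build-up and cell death, fell by 3.80 from 15.7, 7.31 and 7.30 CPM to 0.536, 0.733 and 0.887 CPM (adjusted p = 0.00061). AED1, an aspartyl protease gene of systemic immunity, was more even within each group. It read 27.4, 20.4 and 18.6 CPM in Ler and 4.28, 3.99 and 4.77 CPM with NahG, a fall of 2.34 (adjusted p = 0.0001). PCR1, a cysteine-rich membrane protein gene, and the glutaredoxin gene GRXS13 completed the 9, with falls of 2.34 and 2.04. Without NahG replicate 1 the adjusted p was 0.079 for PCR1 and 0.14 for GRXS13.

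The classical marker genes of the pathway were low in Ler and did not pass. PR1, the usual reporter of salicylic acid signalling, read 28.4, 6.44 and 3.25 CPM in Ler and 0.989, 1.1 and 1.77 CPM with NahG. The groups did not overlap, but the Ler libraries differed from each other several-fold, and the log2 difference of −3.28 had an adjusted p of 0.09. DESeq2 called it at 0.00044, and without Ler replicate 1 the difference was −1.91 with an adjusted p of 0.059 in edgeR. PR2, a glucanase gene, overlapped between the groups at 20.3, 9.87 and 10.0 CPM against 10.7, 7.51 and 14.9 CPM. PR5, a thaumatin-like protein gene, read 35.1, 12.7 and 13.0 CPM against 13.5, 11 and 12.5 CPM, so that replicate 1 of Ler alone stood apart. Over the whole list, the summed level was 741, 328 and 341 CPM in Ler and 77.9, 69.2 and 80.6 CPM in Ler NahG.

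**Figure D2:**
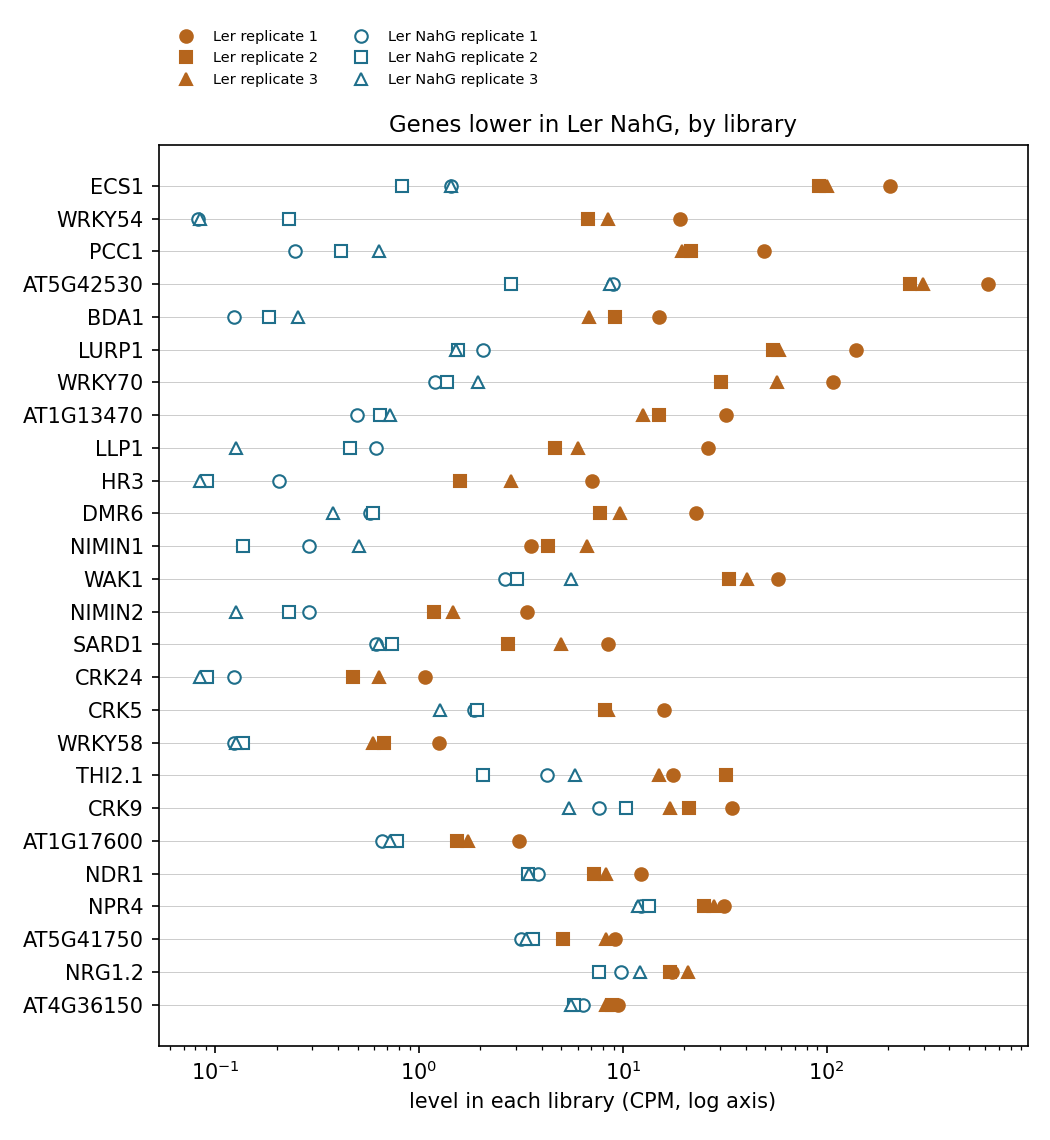
Level of 26 named genes that fell, in each of the 6 libraries (CPM, log axis). Filled orange symbols are Ler and open blue symbols Ler NahG, with circles, squares and triangles for replicates 1, 2 and 3. For ECS1 the Ler libraries lie between 91.9 and 204 CPM and the NahG libraries between 0.825 and 1.44 CPM.

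The stretches before the transcription start were searched for motifs because the proteins that read salicylic acid act through TGA and WRKY factors. They are shown for 4 of the 10 largest named falls with over 3 reads in Ler NahG. ECS1 was chosen as the largest, and PCC1, WRKY70 and LLP1 because they held 2 or more TGACG cores. Each runs 5′ to 3′ along the gene's strand and ends just before the start that RefSeq gives in TAIR10.1. That genome is of another accession, so the letters may differ from those of Ler. Capitals mark TTGAC, the core bound by WRKY factors, and TGACG, the core bound by TGA factors, on either strand, so that they can also read GTCAA and CGTCA. The motifs may overlap, as in TTGACG, which holds both. TGACGTCA holds TGACG once on each strand and was counted as 2 cores, here and in the shares below.
ECS1, chr1:11310747-11310996, plus strand: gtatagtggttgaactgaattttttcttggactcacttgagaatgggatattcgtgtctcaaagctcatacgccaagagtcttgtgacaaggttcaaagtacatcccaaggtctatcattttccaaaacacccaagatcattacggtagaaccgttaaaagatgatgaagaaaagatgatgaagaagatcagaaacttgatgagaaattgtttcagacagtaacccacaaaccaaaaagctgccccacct
PCC1, chr3:7846834-7847083, minus strand: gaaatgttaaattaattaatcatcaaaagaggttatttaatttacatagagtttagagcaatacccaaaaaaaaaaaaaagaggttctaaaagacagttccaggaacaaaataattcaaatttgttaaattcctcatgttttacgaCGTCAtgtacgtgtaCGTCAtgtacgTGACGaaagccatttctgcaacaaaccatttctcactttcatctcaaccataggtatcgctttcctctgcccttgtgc
WRKY70, chr3:20910624-20910873, minus strand: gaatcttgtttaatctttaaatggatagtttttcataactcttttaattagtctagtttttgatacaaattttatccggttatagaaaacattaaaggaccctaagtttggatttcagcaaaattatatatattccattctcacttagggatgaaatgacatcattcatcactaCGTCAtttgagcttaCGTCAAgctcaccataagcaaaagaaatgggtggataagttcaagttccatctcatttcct
LLP1, chr5:816671-816920, minus strand: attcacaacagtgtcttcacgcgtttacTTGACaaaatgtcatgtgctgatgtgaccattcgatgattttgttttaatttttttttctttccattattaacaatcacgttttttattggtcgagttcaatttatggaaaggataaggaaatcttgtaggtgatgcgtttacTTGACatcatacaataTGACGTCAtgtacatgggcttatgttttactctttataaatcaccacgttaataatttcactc
The PCC1 stretch held 3 TGACG cores and no TTGAC, that of WRKY70 held 2 TGACG and 1 TTGAC, that of LLP1 held 2 of each, and that of ECS1 held neither. The 2 TGACG of LLP1 are the strands of 1 TGACGTCA. Of the 6 not shown, WRKY54 and LURP1 held neither motif, AT5G42530 held 1 TGACG, and BDA1, AT1G13470 and HR3 held 2 TTGAC each.

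Of the 102 falling genes, 100 had such a stretch of 250 bases in the RefSeq table. TTGAC was found in 53% of them and TGACG in 30%. Among all 27431 protein-coding genes the shares were 44.9% and 18.6%, and among the 19576 tested genes with a stretch 44.6% and 19.4%. At least 2 copies of TTGAC were in 34% of the falling genes' stretches against 14.0% of the tested genes', and at least 2 copies of TGACG in 10% against 3.52%. Of the 12 rising genes with a stretch, 25% held TTGAC and 8.33% TGACG. A match describes the letters of the TAIR10.1 genome only, not those of Ler, and binding was not measured.

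Among genes that read and pass on the hormone, 3 of 14 fell, none rose and 11 did not pass, with a median of −0.16. NPR4, a salicylic acid receptor that represses target genes, was even within both groups. It stood at 31.3, 24.9 and 27.9 CPM in Ler and at 12.2, 13.4 and 11.9 CPM in Ler NahG, a fall of 1.16 (SE 0.10, adjusted p = 0.00016). NIMIN1, which encodes a small partner of NPR1, read 3.53, 4.31 and 6.71 CPM against 0.288, 0.137 and 0.507 CPM and fell by 3.93 (SE 0.37, adjusted p = 0.00035). Unlike most falling genes, it was highest in Ler replicate 3. NIMIN2, a second partner, fell by 3.18 (adjusted p = 0.029), a call that ended at 0.14 without NahG replicate 3. NPR1 itself differed by −0.26 (adjusted p = 0.37) and NPR3 by −0.95 (adjusted p = 0.26), and the TGA factor genes of the list lay between −0.06 and 0.08.

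4 of 54 WRKY genes tested fell and none rose, a share of 7.41%, while the family's median was −0.02. WRKY70, a factor that promotes salicylic acid responses and restrains senescence, read 107, 30.4 and 57.3 CPM in Ler and 1.19, 1.37 and 1.94 CPM with NahG, a fall of 5.42 (SE 0.54, adjusted p = 0.00049). WRKY54, its closest relative, read 19.0, 6.75 and 8.49 CPM against 0.0824, 0.229 and 0.0845 CPM, a fall of 6.40 (SE 0.59, adjusted p = 0.00025). In both genes the groups were far apart and Ler replicate 1 was the highest, and the NahG values of WRKY54 rest on 9 reads in all. WRKY38, which restrains basal defence, had 44 reads over the Ler libraries and 0 over the NahG libraries, which puts it 14-fold or more below Ler when the NahG group is set at the floor of 3 reads. WRKY58, described as a brake on systemic resistance, fell by 2.64 (adjusted p = 0.018). Leaving out NahG replicate 1 moved the adjusted p to 0.072 for WRKY38 and 0.11 for WRKY58. WRKY46, which works beside WRKY70 and WRKY54, differed by −1.80 with an adjusted p of 0.058.

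Of 12 genes for making salicylic acid, 1 fell, none rose and 11 did not pass, and the median was 0.03. SARD1, the one that fell, encodes an activator of ICS1 and stood at 8.50, 2.73 and 4.96 CPM in Ler and at 0.618, 0.733 and 0.633 CPM with NahG, a change of −3.01 (SE 0.40, adjusted p = 0.0053). The Ler libraries all lay above the NahG libraries. ICS1, the gene it is known to activate, read 10.4, 10.5 and 9.17 CPM in Ler and 11.2, 11.3 and 9.88 CPM in Ler NahG, with overlapping groups (log2 difference 0.11, adjusted p = 0.89). CBP60G, the partner of SARD1, differed by −0.71 (adjusted p = 0.62), EDS5, the exporter of the precursor from the chloroplast, by −0.03, and PBS3, which conjugates it to glutamate, by 0.28.

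Of 11 tested genes for hydroxylation and conjugation, DMR6 fell and none rose. DMR6 encodes the salicylate 5-hydroxylase, the plant's own enzyme for removing the hormone. It went from 22.9, 7.74 and 9.64 CPM to 0.577, 0.596 and 0.380 CPM, a fall of 4.68 (SE 0.44, adjusted p = 0.00029), with the NahG libraries tight and Ler replicate 1 the highest. The glucosyltransferase genes UGT74F2 and UGT76B1 differed by −1.65 and −3.45, with adjusted p-values of 0.1 and 0.4. In the list for pipecolate, the signal of systemic resistance, LLP1 was the only called gene of 8 tested.

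In the node around EDS1, 3 of 10 genes fell, none rose and 7 did not pass, with a median of −0.30. EDS1 and PAD4, the core pair, did not pass. PAD4 read 18.2, 15.5 and 15.0 CPM in Ler and 15.5, 16.2 and 14.5 CPM with NahG (log2 difference −0.08, adjusted p = 0.89). EDS1 read 27.9, 25.4 and 27.8 CPM against 20.6, 16.5 and 22.9 CPM, without overlap (log2 difference −0.43, adjusted p = 0.27). EDS1B, a close copy of EDS1, read 1.16, 0.632 and 0.516 CPM against 0, 0.0458 and 0.0422 CPM and fell by 4.49 (adjusted p = 0.007), but reads shared with EDS1 make the value of this copy uncertain. NDR1, a membrane protein gene needed for signalling by coiled-coil NLRs, read 12.3, 7.19 and 8.26 CPM against 3.83, 3.44 and 3.46 CPM and fell by 1.37 (adjusted p = 0.01). In both genes all NahG libraries lay below all Ler libraries. NRG1.2, a helper NLR that acts with EDS1, fell by 0.90 from 17.5, 17.0 and 20.8 CPM to 9.85, 7.61 and 12.2 CPM (adjusted p = 0.015). All 3 calls ended without NahG replicate 1, at adjusted p-values of 0.05, 0.054 and 0.079.

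Few NLR genes changed. Of 121 tested, 4 fell and none rose, 3.31%, with a median of 0.00. Beside NRG1.2 they were the TIR-type genes AT1G17600, AT5G41750 and AT4G36150, which fell by 1.55, 1.15 and 0.58. No NLR gene was called without NahG replicate 1 or in the fit of the 6 libraries alone. Outside that list, HR3, a homolog of the RPW8 mildew-resistance genes, fell by 4.81 from 7.02, 1.58 and 2.82 CPM to 0.206, 0.0916 and 0.0845 CPM (adjusted p = 0.014), a call that ended at 0.08 without NahG replicate 2.

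Kinase genes were a further group among the falls. RefSeq product names hold the word kinase for 21 of the 102 falling genes, and their median was −1.68. That is 1.88% of the 1115 such genes tested, against 0.502% of all genes, and the word also takes in metabolic enzymes such as the phosphofructokinase PFK3. WAK1, a wall-associated kinase that binds pectin, was the only called gene of 5 in its family list. It read 57.8, 33 and 40.8 CPM in Ler and 2.64, 3.02 and 5.57 CPM with NahG, a fall of 3.55 (SE 0.31, adjusted p = 0.00016). Its relative WAK2 differed by −0.94 with an adjusted p of 0.096. AT1G16260 and AT1G69730, which the list does not hold but RefSeq also names wall-associated kinase family proteins, fell by 2.33 and 1.83 (adjusted p = 0.0046 and 0.0059). They were named after their values were seen.

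Among 35 cysteine-rich receptor-like kinases, CRK5, CRK9 and CRK24 fell, none rose and 32 did not pass, with a median of −0.17. CRK5 read 15.9, 8.18 and 8.45 CPM in Ler and 1.85, 1.92 and 1.27 CPM with NahG and fell by 2.68 (SE 0.28, adjusted p = 0.00074). CRK9 and CRK24 fell by 1.63 and 2.78, at adjusted p-values of 0.015 and 0.013 that rose to at most 0.089 and 0.07 when one library was left out. These genes lie in tandem clusters of close copies, so reads may be divided between neighbours. RK3, an S-domain receptor kinase gene that was named after its values were seen, was even within both groups. It stood at 17.8, 17.4 and 19.3 CPM in Ler and at 6.43, 5.45 and 5.15 CPM in Ler NahG, a fall of 1.68 (SE 0.12, adjusted p = 7.1e-05), and it showed no high value in Ler replicate 1.

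73 of the 102 falling genes belonged to none of the lists. AT5G42530, an uncharacterised protein gene, read 619, 256 and 298 CPM in Ler and 8.94, 2.84 and 8.70 CPM with NahG, a fall of 5.83 (SE 0.47, adjusted p = 0.0001). AT1G13470, of a domain family with no known function, went from 32.2, 15.1 and 12.6 CPM to 0.494, 0.641 and 0.718 CPM and fell by 5.0 (adjusted p = 0.00016). AT3G22235, which encodes a cysteine-rich transmembrane module protein, had 48 reads in Ler and 0 with NahG, a fall of 15.3-fold or more by the same floor.

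The following were named after their values were seen. AT2G41090, a calcium-binding EF-hand gene, read 426, 199.7 and 206 CPM in Ler and 21.6, 19.6 and 17.9 CPM with NahG, a fall of 3.81 (adjusted p = 9.2e-05). SIB1, a plastid sigma-factor binding protein gene that also acts with WRKY33, fell by 3.54 from 22.6, 11.6 and 10.2 CPM to 1.24, 1.33 and 1.22 CPM (adjusted p = 0.00048). In both genes the NahG libraries lay close together and Ler replicate 1 was the highest. The ion channel genes CNGC11 and CNGC3, which are neighbours on the chromosome, fell by 2.35 and 1.57 (adjusted p = 0.0048 and 0.013), and the call of CNGC3 ended at 0.08 without NahG replicate 1. RLP38, a receptor-like protein gene, fell by 4.12 from 3.17, 2.05 and 2.54 CPM to 0.165, 0.137 and 0.127 CPM (adjusted p = 9.3e-05). None of its libraries stood apart from its own group. DML1, also known as ROS1, encodes a DNA demethylase and fell by 0.74 from 72.7, 84.0 and 71.6 CPM to 41.1, 50.9 and 44.5 CPM (adjusted p = 0.013, 0.079 without NahG replicate 1). PFK3, a phosphofructokinase gene, was even in Ler, at 29.5, 29.4 and 29.6 CPM against 20.7, 21.2 and 22.8 CPM, and fell by 0.45 (adjusted p = 0.026).

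A few falling genes did not share the order of the Ler libraries. GILT, a thiol reductase gene, read 11, 29.5 and 16.2 CPM in Ler and 3.38, 1.19 and 1.48 CPM with NahG, a fall of 3.22 (adjusted p = 0.011, 0.055 without NahG replicate 3), and C24 held at most 0.0853 CPM. THI2.1, an antimicrobial thionin gene known for induction by jasmonate, read 17.5, 32.2 and 15.0 CPM against 4.24, 2.06 and 5.83 CPM and fell by 2.41 (adjusted p = 0.037, 0.18 without NahG replicate 1). Both were highest in Ler replicate 2, like 8 of the 102 falls. THI2.1 was the only called gene among 24 of jasmonate and ethylene, whose median was 0.04.

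The lowest adjusted p of the comparison belonged to AT2G32170. This gene, which encodes a predicted S-adenosylmethionine-dependent methyltransferase and was named after its values were seen, stood at 24, 24.3 and 25.7 CPM in Ler and at 2.35, 2.89 and 3.21 CPM in Ler NahG. Both groups were tight, and the fall of 3.13 (SE 0.11) had an adjusted p of 5.9e-08, which was at most 1.5e-06 with any one library left out. The genes on either side of it on chromosome 2 were not called. AT2G32160, annotated with the same enzyme family, read 64.0, 47.6 and 51.5 CPM against 47.8, 70.2 and 45.3 CPM, with overlapping groups and a log2 difference of 0.00. The noncoding RNA AT2G32179 on the other side differed by −0.01. AT2G32150, a haloacid dehalogenase-like hydrolase gene next to AT2G32160, rose by 0.88 from 32.1, 33.9 and 41.3 CPM to 61.3, 69.5 and 67.0 CPM (adjusted p = 0.042, at most 0.14 with one library left out). In the C24 NahG lines AT2G32170 differed from C24B by 0.14 (adjusted p = 0.26) while AT2G32160 fell by 4.21 (adjusted p = 1.6e-06). That fall of AT2G32160 rests on 105 reads in C24B and on 7 and 5 reads in the C24 NahG lines. The differences between the accessions were −3.27 for AT2G32170 (adjusted p = 4.3e-09) and 4.22 for AT2G32160 (adjusted p = 5.4e-05). How reads of these related sequences were divided between them was not tested.

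The median rise was smaller than the median fall, and 7 of the 18 rises reached 2-fold. XTH24, which encodes a wall-loosening xyloglucan endotransglucosylase, read 92.2, 86.1 and 93.0 CPM in Ler and 136, 144 and 129.9 CPM with NahG, a rise of 0.59 (SE 0.08, adjusted p = 0.0057). The groups were apart and tight, and the call held with each library left out in turn. It was the only XTH gene called of 22, a family with a median of 0.31. FRO4, a ferric reductase gene, read 6.62, 5.21 and 4.8 CPM against 9.39, 9.53 and 9.37 CPM and rose by 0.77 (adjusted p = 0.027). AT5G47330, an alpha/beta-hydrolase gene, rose by 1.38 from 5.14, 3.12 and 3.49 CPM to 10.7, 10.9 and 9.04 CPM (adjusted p = 0.015). Each of these last calls ended without NahG replicate 1, at 0.12 and 0.079. The other rises named by the rule were AT5G62360, AT1G27030, AT3G28270 and AT3G14280 at 0.64 to 0.76, and the noncoding RNA AT2G05995 at 1.27, and each of them lost its call without at least 1 of the libraries. AT2G16340, an uncharacterised gene named after its values were seen, rose by 2.80 from 0.894, 0.395 and 0.595 CPM to 4.33, 5.09 and 3.76 CPM (adjusted p = 0.0048) and was listed at 0 in the 3 libraries of C24. The largest fitted rises belonged to AT1G49832 and AT5G28053, also named after their values were seen and both too low for the naming rule. AT1G49832, a noncoding RNA, had 1 read over the Ler libraries and 50 over the NahG libraries (adjusted p = 0.0053, at most 0.033 with one library left out). AT5G28053, an uncharacterised gene, went from 0.224, 0.118 and 0.595 CPM to 3.71, 4.90 and 2.66 CPM and rose by 3.56 (adjusted p = 0.021, 0.084 without NahG replicate 1). Both had all NahG libraries above all Ler libraries.

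3 of the rises were ribosomal or plastid transcripts. The 18S rRNA locus AT3G41768 read 145, 125 and 121 CPM in Ler and 375, 225 and 218 CPM with NahG, a rise of 1.07 (adjusted p = 0.044). The plastid-genome locus ATCG00020 read 40.4, 43.2 and 38.1 CPM against 141, 88.1 and 68.2 CPM and rose by 1.29 (adjusted p = 0.018), and ATCG00490 rose by 0.88 (adjusted p = 0.035). With one library left out these values reached 0.17, 0.074 and 0.15. NahG replicate 1 was the highest library for all 3. The share of gene reads on plastid loci was 0.0233% to 0.0255% in Ler and 0.0266% to 0.0389% in Ler NahG, and on rRNA 0.0136% to 0.0141% against 0.0218% to 0.0379%. Of 75 plastid loci tested, 64 had a value above 0 and 2 were called, and the median was 0.27. The part of RNA selection in these values was not tested.

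Many listed functions held no called gene in either direction with edgeR. Pattern-triggered immunity had 15 genes tested and a median of −0.25, with 6 genes lower and none higher at an unadjusted p under 0.05, which 4.4% and 3.7% of all genes tested reached in those directions. DESeq2 called 3 of them lower. Leaf senescence had 18 genes, a median of 0.10, 5 lower and 1 higher at that unadjusted threshold, and none called by DESeq2. SAG13, a senescence marker that salicylic acid also induces, differed by −1.25 (adjusted p = 0.55), and by −0.20 without Ler replicate 1. The endoplasmic reticulum chaperones, which serve secretion of defence proteins, had 16 genes, a median of −0.08, 1 gene lower at the unadjusted threshold and none called by DESeq2. Indole glucosinolates and camalexin had 13 genes and a median of −0.19, with 3 lower and 1 higher unadjusted and none by DESeq2.

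Of all genes tested, 10276 had values above 0. In some lists of growth and metabolism most members did, without calls, while 16 of 17 genes of dividing cells and young leaves were below 0. All 33 photosynthesis genes had values above 0, with a median of 0.22, 2 higher at the unadjusted threshold and none called by DESeq2, while their summed level overlapped between Ler and Ler NahG. Auxin, shade and cell expansion had 23 genes, 19 above 0, a median of 0.28, 5 higher unadjusted and none by DESeq2. Its summed level was 865, 909 and 901 CPM in Ler and 1060.0, 1040.0 and 1070.0 CPM in Ler NahG, so these sums did not overlap. Aliphatic glucosinolates had 20 genes and a median of 0.11, cold and abscisic acid 13 genes and 0.22, each with 2 higher unadjusted, and the circadian clock 11 genes and 0.23, with 1 higher. DESeq2 called none in these 3 lists. FLC, the flowering repressor, was listed at 0 to 0.229 CPM in the 6 libraries.

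**Figure D3:**
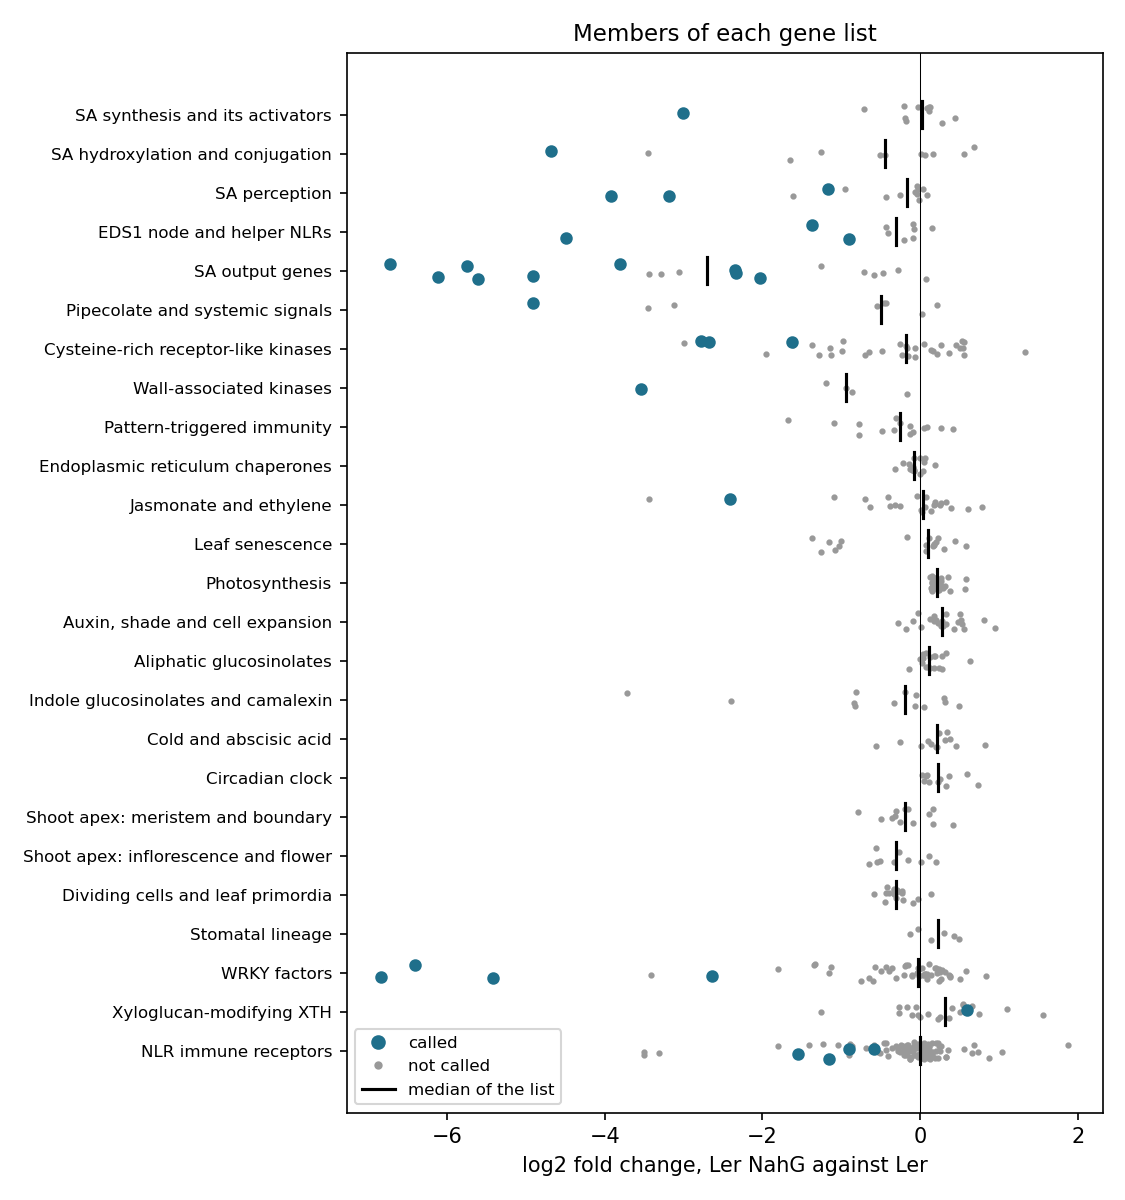
Log2 fold change of Ler NahG against Ler for each tested member of 25 lists with at least 5 genes tested. Large blue dots are called members and short bars mark medians. The median bar of the salicylic acid output genes lies at −2.70, and those of the other lists lie between −0.94 and 0.31.

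Several shoot-apex genes ranged widely between the replicates of each genotype, and none was called between the genotypes. The 4 class I KNOX genes, which keep the shoot meristem undifferentiated, summed to 22.3, 112 and 135 CPM in Ler and to 77.6, 22.5 and 130 CPM in Ler NahG. Replicate 1 of Ler and replicate 2 of Ler NahG were thus the low libraries, and the groups overlapped. STM, the central member, read 9.70, 40.2 and 48.5 CPM in Ler and 26.4, 8.61 and 44.1 CPM with NahG, and its highest library was 5.0 times the lowest in Ler and 5.12 times in Ler NahG. KNAT1, which shapes the stem and inflorescence, read 6.98, 56.5 and 63.8 CPM against 40.5, 8.16 and 65.8 CPM, ratios of 9.14 and 8.07. Over 16918 genes the median of that ratio was 1.25 in Ler and 1.23 in Ler NahG, and the 95th percentile was 2.44 and 2.12.

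TFL1, which keeps the inflorescence indeterminate, followed the KNOX genes at 0.894, 7.78 and 6.19 CPM in Ler and 4.61, 0.779 and 6.38 CPM with NahG. Of 13 meristem and boundary genes, 7 were lowest in both low libraries and 3 were highest in both. The 7 include the 4 KNOX genes whose sum defined the low libraries, and the others were BLH9, PNF and LOB. The genes that were high there included CLV1, the receptor of the meristem-restricting CLV3 peptide, at 47.3, 38.4 and 38.4 CPM in Ler and 41.0, 55.9 and 41.9 CPM with NahG. WUS, the organiser of the stem cell niche, read 2.06, 1.58 and 0.437 CPM against 1.03, 1.15 and 0.169 CPM and did not follow STM either. CLV3 itself had 2 reads in the Ler libraries and 0 with NahG. Among 10 inflorescence and flower genes, 6 were highest in both of the low-KNOX libraries, and so were 5 of 6 stomatal-lineage genes. Among 17 genes of dividing cells and young leaves, 9 were lowest in both. Over all genes tested, Ler replicate 1 was the highest of its group for 39% and Ler NahG replicate 2 for 38.1%. The deviations of these libraries from their group means correlated at 0.455 over 17013 genes, so a shared order was not particular to these lists.

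The order of the libraries was not the same for every apex gene. SOC1, a flowering promoter, stayed within 124 to 127 CPM in Ler and 133 to 139 CPM in Ler NahG. No gene was called in either direction by edgeR or DESeq2 among the meristem, inflorescence, dividing-cell and stomatal lists, which had medians of −0.20, −0.30, −0.30 and 0.22. At an unadjusted p under 0.05 these lists held 1 higher, 1 lower, 2 lower and 1 higher gene. For STM the log2 difference was −0.31 (adjusted p = 0.94) and for KNAT1 −0.15 (adjusted p = 0.98), and both turned positive in some of the alternative fits. LFY, the floral identity gene, read 1.57, 0.513 and 0.318 CPM in Ler and 0.412, 0.0916 and 0.127 CPM with NahG and was too low for the test, and CUC2, a boundary gene, differed by −0.50 (adjusted p = 0.8).

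**Figure D4:**
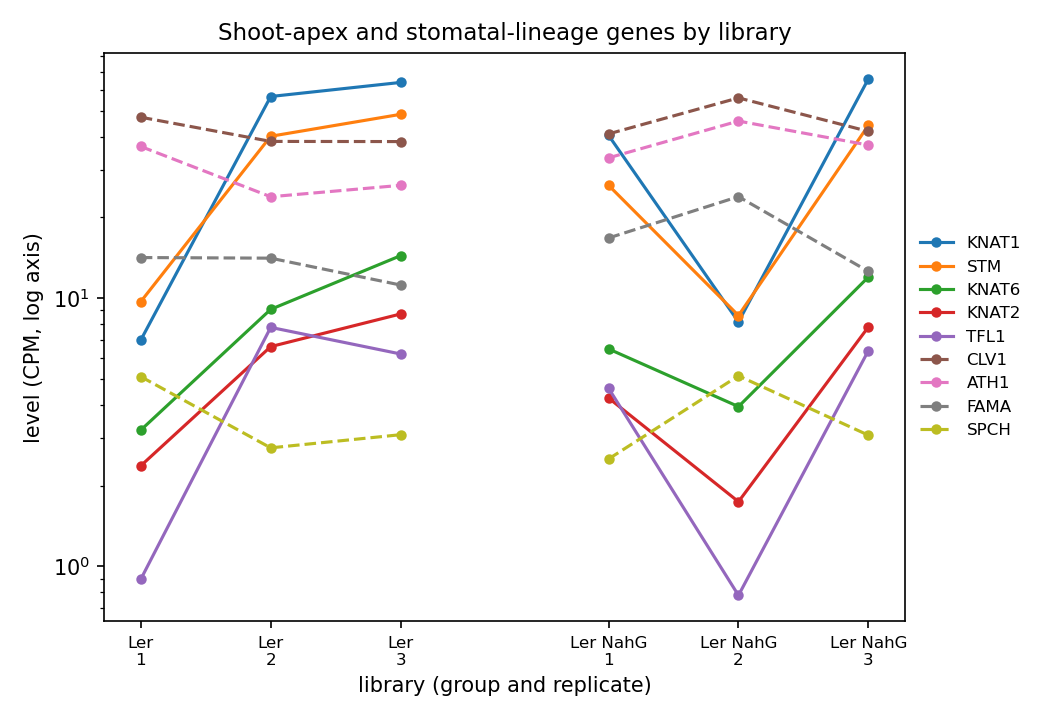
Level of shoot-apex and stomatal-lineage genes in each library (CPM, log axis, lines only join values of one gene within a group). Solid lines are class I KNOX genes and TFL1, dashed lines CLV1, ATH1, FAMA and SPCH. KNAT1 drops to 6.98 CPM in Ler replicate 1 and 8.16 CPM in Ler NahG replicate 2.

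The low-KNOX libraries were set beside the genes that fell. The salicylic acid output list summed to 741 CPM in Ler replicate 1, the low-KNOX library of that group, and to 69.2 CPM in Ler NahG replicate 2, the lowest of its group. Without both libraries, 62 of the 102 falls were called and the median over the 102 was −2.05. That fit called 8 output genes against 9 with all libraries, 3 genes of the EDS1 node and 3 cysteine-rich kinases as before, 2 WRKY genes against 4, 2 perception genes against 3, 1 NLR gene against 4 and no jasmonate gene against 1. With a shoot-apex covariate in the fit of all libraries, 225 genes were called, and all 120 genes were among them.

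Ler rosettes held far less of most of these transcripts than C24 rosettes of the same sequencing stage. The levels are given as a description, since the reads of both were mapped to the genome of another accession. The output list summed to 328 to 741 CPM in Ler and to 7630 to 8960 CPM in C24. The EDS1 node summed to 163 to 197 CPM against 528 to 553 CPM, and the wall-associated kinases to 73.9 to 139 CPM against 811 to 937 CPM. ECS1 ran the other way, at 17.1 to 19.0 CPM in C24 and at least 91.9 CPM in Ler. Other falling genes did so too, among them GILT, THI2.1 and DML1. Their means were 18.9, 21.6 and 76.1 CPM in Ler and 0.0546, 0.709 and 56.1 CPM in C24. AT2G32170 was at like levels in both, 26.0 to 27.6 CPM in C24.

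The NahG effect seen in Ler differed from that in the C24 lines for many genes. Accession, NahG line and sequencing stage change together in this comparison and cannot be told apart. In a fit of all 18 libraries the effect in Ler minus the mean effect of the 2 C24 lines against C24B was called for 1854 of 21061 genes, or 8.8%, above 0 in 1427 and below 0 in 427. Of 51 tested genes that were named for their size of change, as list members or as fixed markers, 26 were called, 23 of them above 0. The WRKY and NLR genes named only through their families were not among the 51, and of those WRKY58 had a called difference of 3.27 (adjusted p = 0.027). PR1 had an effect of −3.28 in Ler and −11.1 in C24, a difference of 7.85 (adjusted p = 0.00042). LURP1 fell by 5.6 in Ler and by 11.2 in C24, a difference of 5.59 (adjusted p = 0.00011). Both effects were smaller in Ler. PAD4, at −0.07 in Ler and −2.25 in C24, differed by 2.18 (adjusted p = 4.9e-06), and ICS1, at 0.11 and −1.29, by 1.40 (adjusted p = 0.0016). NPR4 fell by 1.16 and by 2.16, a difference of 1.00 (adjusted p = 0.001).

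For other genes the effects were near each other or opposite. ECS1 had −6.72 in Ler and −6.90 in C24, a difference of 0.18 with an SE of 0.66 (adjusted p = 0.9). WRKY70 had −5.42 and −4.66, a difference of −0.76 with an SE of 0.66 (adjusted p = 0.49), WAK1 a difference of 0.66 (adjusted p = 0.29) and AT5G42530 of 0.77 (adjusted p = 0.38). Those differences were not called, which does not show that the effects were equal. THI2.1 fell by 2.41 in Ler and rose by 2.71 in C24, a difference of −5.12 (adjusted p = 0.00094). Its level was low in C24, at 0.216 to 1.32 CPM in the first-stage libraries. AT3G14280, a predicted diaminopimelate aminotransferase gene, had 0.77 in Ler and −2.61 in C24, a difference of 3.38 (adjusted p = 2.1e-06).

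**Figure D5:**
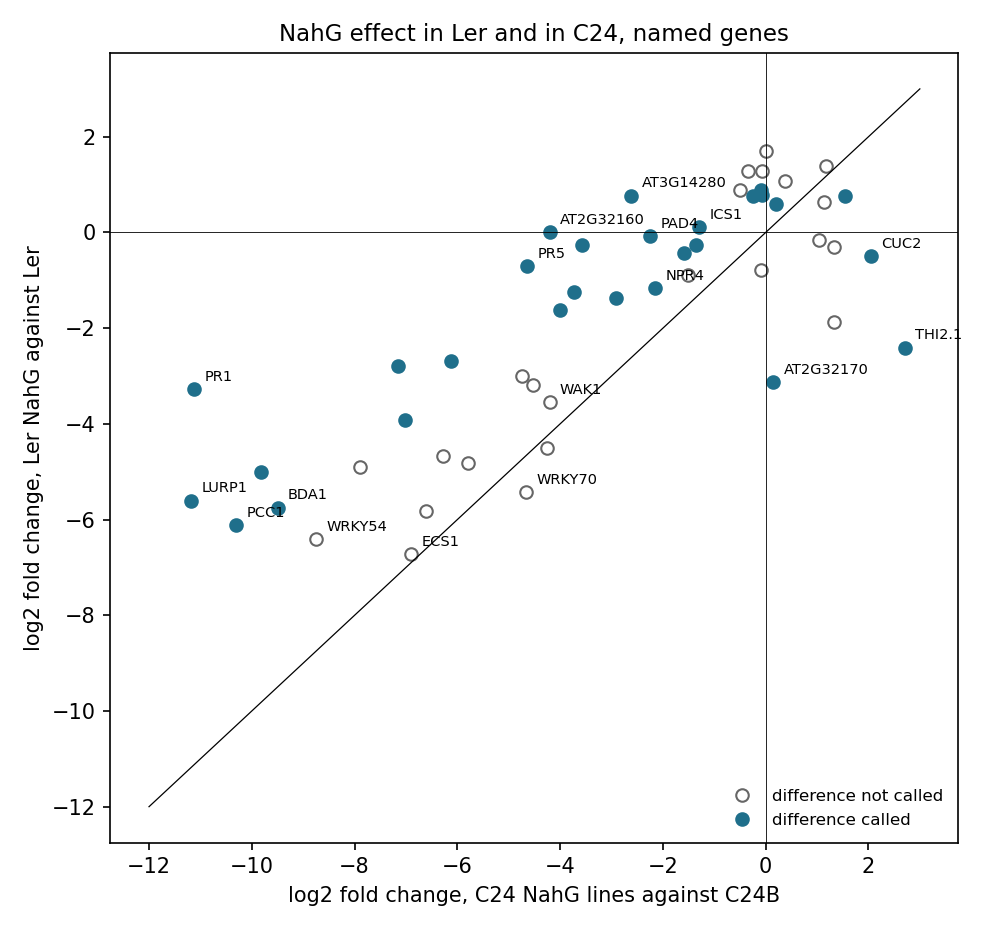
NahG effect in Ler (vertical axis) against the effect in the C24 NahG lines (horizontal axis), both as log2 fold change in the fit of 18 libraries, for 51 genes, which are 49 of the named genes plus AT2G32160 and AT2G32170, added after their values were seen. Filled points mark the 28 genes whose difference was called, 26 without that pair, and the diagonal marks equal effects. LURP1 and PR1 lie far above the diagonal, and ECS1 and WRKY70 lie near it.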

How the data were processed

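Rosette RNA was sequenced in 18 libraries. Per the submitters' processing notes, the authors used STAR 2.5.3, DESeq2 and the TAIR10 genome, and they deposited whole-number read counts per gene in a single table; the counting tool and its strand setting are not given in the sources used here. The 5 table rows that name no gene were kept out of library sizes and tests. In the 6 Ler libraries they held 2.76% to 3.77% unmapped, 1.49% to 1.85% multimapping, 0.26% to 0.357% without a feature and 4.32% to 4.85% ambiguous reads of all reads, and the remaining row gave the total assigned to genes.

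Groups were taken from the labels. Counts of the 12 libraries of the first sequencing stage (C24, Ler, Ler NahG and the hybrid) were filtered with filterByExpr, scaled by TMM and tested with edgeR 4.0.16 (glmQLFit and glmQLFTest, R 4.3.3, limma 3.58.1) with 8 residual degrees of freedom, and p-values were Benjamini-Hochberg adjusted over all 20325 genes. The fit shares its spread over 4 groups, and a gene can pass the filter through its level in C24 or the hybrid. Differences between accessions came from a fit of all 18 libraries, each effect being taken within its own sequencing stage. Named genes were the 12 largest falls and 12 largest rises among called genes with an average log2 CPM of at least 1, up to 4 called genes of each list, 15 fixed markers and called WRKY, XTH and NLR genes. The largest falls and rises were also required to have no overlap between the groups. For differences between accessions, genes named only through a family were not used. The members and the 26 lists (615 genes, 7 of them in 2 lists) were chosen with earlier results of these data known. On simulated counts for 20325 genes, the Ler comparison recovered 9 of 50 genes changed by 0.5 (log2), 46 of 50 changed by 1 and 50 of 50 changed by 2, with 6 false calls. The simulation drew each library independently around a mean common to all groups and changed only genes with an average log2 CPM of at least 1. It held no shift shared by the genes of a library, so these rates may not carry over to the data. No pair of replicates of a group was alike within sampling noise (chi-square per degree of freedom 12.4 to 51.75). Symbols, product names and promoter stretches came from RefSeq (TAIR10.1), which held 99.2% of the gene rows. Alternatives were DESeq2 1.42.0, other scalings and filters, other sets of libraries, a shoot-apex covariate, a replicate block and leaving out each library; leaving out both low-KNOX libraries or organelle genes was chosen after seeing the data. Figures were drawn with matplotlib 3.10.9. Read floors cover counting error only.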

Additional observations from a re-analysis of the deposited data

Results flagged for a closer look

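The effect of NahG differed between Ler and C24 for 28 genes, of which AT2G32160 and AT2G32170 were added after their values were seen, by an interaction term in edgeR's quasi-likelihood fit of 18 libraries (adjusted p under 0.05 over all genes). Values are the log2 effect in Ler minus that in C24, and 8.8% of all genes tested were called in the same way. Accession, NahG line and sequencing stage cannot be told apart in these differences.

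Output and marker genes were above 0, which for genes that fell in both accessions is a smaller fall in Ler. The genes given next stood far lower in Ler than in C24. In Ler NahG, BDA1 averaged 0.187 CPM, near the floor of 3 reads, while PR5 and PR2 averaged 12.35 and 11.03 CPM. Whether a low level limited the fall that can be read in Ler was not tested. The difference was 7.85 for PR1, 5.59 for LURP1, 4.82 for AT1G13470, 4.19 for PCC1, 3.94 for PR5, 3.75 for BDA1, 3.3 for PR2 and 2.47 for SAG13. Regulators followed with 3.09 for NIMIN1, 2.18 for PAD4, 1.55 for NDR1, 1.40 for ICS1, 1.16 for EDS1, 1.11 for NPR1 and 1.00 for NPR4. The cysteine-rich kinases had 4.37 for CRK24, 3.44 for CRK5 and 2.37 for CRK9.

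Among genes that rose in Ler, the difference was 3.38 for AT3G14280, 1.00 for AT3G28270, 0.98 for AT2G32150, 0.84 for FRO4, 0.40 for XTH24 and −0.79 for AT1G27030. THI2.1 had −5.12 and CUC2, a boundary gene that was not called in Ler, −2.54. The neighbouring methyltransferase genes had −3.27 for AT2G32170 and 4.22 for AT2G32160. WRKY58, named only through its family, is not among the 28 and had 3.27, called in 9 of 15 alternatives. With one library left out, another scaling or filter, or another tool, the call of XTH24 held in 4 of 15 alternatives and that of SAG13 in 6. NIMIN1, AT1G27030, AT2G32150, AT3G28270, CRK24, FRO4, CUC2 and BDA1 held in 12 to 14 of 15, with adjusted p-values of at most 0.14.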

How the results depend on the processing

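All 120 called genes kept their direction under every alternative that tested them, which was 115 of them in the fits of 6 libraries and 117 without organelle genes. The number of calls moved much more. The fit of the 6 libraries alone called 21 genes (20 lower, 1 higher, 1036 at an unadjusted p under 0.05), DESeq2 278 (208 lower, 70 higher) and the fit with a shoot-apex covariate 225 (184 lower, 41 higher). Scaling by total counts called 157 genes lower, with a median over all genes of −0.06. Leaving out one library gave 45 to 151 calls, 40 to 129 of them lower and 5 to 55 higher. The calls were fewest without Ler NahG replicate 1, and without Ler replicate 1 there were 55 higher.

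Equal replicate numbers went together only for replicate 3. Deviations from the group means correlated at −0.0655, −0.237 and 0.514 for replicates 1, 2 and 3 over 17013 genes. Across numbers, Ler replicate 1 correlated with Ler NahG replicate 2 at 0.455, and Ler replicate 2 with Ler NahG replicate 1 at 0.321. A fit with the replicate number as a block called 114 genes (98 lower, 16 higher), and with the 6 libraries alone it called 3 genes lower and 0 higher, with 1159 at an unadjusted p under 0.05.

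Genes with no call changed sign in some fits. With the shoot-apex covariate STM was at 0.16 and KNAT1 at 0.59. With one library left out, STM ran from −0.90 to 0.10 (0.08 without Ler replicate 3), KNAT1 from −0.80 to 0.32 (0.11 and 0.26 without Ler replicates 2 and 3), PR2 from −0.55 to 0.15 and PAD4 from −0.13 to 0.011. Without both low-KNOX libraries PR2 was at 0.35 and PR5 at 0.0073. The cause of these changes was not tested. The difference between accessions was called for 2864 genes by DESeq2 and for 812 to 3533 with one library left out, fewest without C24B replicate 1. At this depth 3 reads amount to 0.124 to 0.133 CPM, so levels below that rest on single reads.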
